A study of Mus musculus with 19 samples.

Results

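The combined effect of lowering lactate dehydrogenase A in tumour cells and blocking the checkpoint receptor CTLA-4 was measured by comparing 5 mouse tumours that carried both interventions with 4 tumours that carried neither. The libraries were chosen by their labels alone, as the columns for knockdown with anti-CTLA-4 and for control with IgG, and they made up 9 of the 19 libraries of the series. All tumours were grown from 4T1, a mouse mammary carcinoma line, implanted in syngeneic BALB/cAnN mice, and RNA came from the whole frozen tumour. In the first group the implanted cells were the line 4T1-KD, described by the labels as an LDHA-KD tumour, and the mice received anti-CTLA-4 (LDHA-KD anti-CTLA-4 tumours, n = 5). In the second group the implanted cells were the line 4T1-Sc, described as the control tumour, and the mice received IgG (control IgG tumours, n = 4, replicates 1, 3, 4 and 5). Both arms began treatment 3 days after implantation and received 3 doses 3 days apart, so the comparison group was not untreated but carried implanted cells and injected IgG as well. The other 2 arms, LDHA-KD tumours given IgG (LDHA-KD IgG tumours) and control tumours given anti-CTLA-4 (control anti-CTLA-4 tumours, n = 5 each), were used only to place the combined effect. The labels used here do not say whether the knockdown line is a single clone, how old the mice were, or whether each library is a separate animal, so the p-values reflect only how far these samples spread, which may be partly technical. Bulk tumour RNA mixes cancer, immune and stromal cells, and in it fewer cells of a type and less RNA per cell cannot be told apart.

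LDHA converts pyruvate, the end product of glycolysis, to lactate, and many carcinomas make large amounts of it. CTLA-4 is an inhibitory receptor of T cells that competes with the costimulatory receptor CD28 for shared ligands. It is carried at high levels by regulatory T cells, the suppressive lineage defined by the transcription factor FOXP3, and antibodies against it are used in cancer therapy. The series title places the work around the stability of regulatory T cells in tumours with low glycolysis.

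Gene counts per library lay between 36020567 and 43266699 in LDHA-KD anti-CTLA-4 tumours and between 34691169 and 40799761 in control IgG tumours, and the difference in means was not larger than its spread (two-sided exact permutation test over the 9 libraries, p = 0.373). More genes had at least 1 read in LDHA-KD anti-CTLA-4 tumours, with 22711 to 23143 per library against 22060 to 22301 in control IgG tumours (same exact permutation test, p = 0.00794, the smallest this design allows). On a principal component analysis of the 9 libraries the first component held 50.8% of the variance and separated the groups. The second held 16.7% and separated LDHA-KD anti-CTLA-4 tumours replicates 3 and 5, with scores of -32.4 and -26.9, from replicates 1, 2 and 4, with scores of 41.0, 31.0 and 16.5. Reads outside annotated genes were also highest in replicates 3 and 5, at 13.8% and 12.1%, against 11.2% ± 1.99 over all 5 LDHA-KD anti-CTLA-4 tumours (SD) and 9.71% ± 0.60 in control IgG tumours (n = 4). Results that rest on these 2 libraries are therefore given with and without them, and the part that library quality plays in them was not tested. Over all 19 libraries the second component (17.0% of the variance) also set control anti-CTLA-4 tumours replicates 3 and 5 apart, at -32.1 and -31.6. Replicates 1, 2 and 4 of that arm were at -13.3, -0.829 and 15.1. Replicates 3 and 5 were at -0.129 and 13.9 in LDHA-KD IgG tumours and at -1.69 and 27.4 in control IgG tumours. Reads outside annotated genes were 10.3% and 9.70% in control anti-CTLA-4 tumours replicates 3 and 5. Values are gene counts scaled to 1000000 per library (CPM), given in replicate order. Fold changes are log2 values of LDHA-KD anti-CTLA-4 tumours over control IgG tumours with standard errors, tested with edgeR's quasi-likelihood test and Benjamini-Hochberg adjustment over 16763 genes at a threshold of 0.05.

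Ldha (GENCODE M21, GRCm38 chromosome 7, 46841475 to 46855627 on the plus strand), the gene targeted by the knockdown, had 566, 485, 584, 525 and 545 CPM in LDHA-KD anti-CTLA-4 tumours, against 1926, 1624, 1567 and 1283 CPM in control IgG tumours. Every LDHA-KD anti-CTLA-4 tumours library lay below every control IgG tumours library. The log2 fold change was -1.56 (adjusted p = 7.94e-09, SE 0.11). Ldhb, the sister isoform, had 7.14, 6.75, 4.74, 6.99 and 4.42 CPM in LDHA-KD anti-CTLA-4 tumours, against 6.64, 5.51, 4.25 and 6.73 CPM in control IgG tumours, and the groups overlapped, with a log2 fold change of 0.06 (adjusted p = 0.848, SE 0.20). The other arms followed the cell line, with mean Ldha levels of 485 CPM in LDHA-KD IgG tumours and 1914 CPM in control anti-CTLA-4 tumours. Reads of Ldha remain in every library, and host cells in the tumour carry an intact gene, so the depth of knockdown within the cancer cells was not measured.

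A large share of the tested genes differed between LDHA-KD anti-CTLA-4 and control IgG tumours, arms that differ in implanted line as well as in antibody. Of the 16763 genes tested, 3321 (19.8%) were higher and 3297 (19.7%) were lower in LDHA-KD anti-CTLA-4 tumours, together 39.5%, and 8017 had an unadjusted p under 0.05. Most changes were small, with a median absolute log2 fold change of 0.57 among the called genes. More than 2-fold changes were more frequent among higher genes, with 1128 (6.73%) higher and 519 (3.1%) lower. The libraries of the groups did not overlap for 2145 genes that were higher (12.8%) and 2188 that were lower (13.1%). Without LDHA-KD anti-CTLA-4 tumours replicates 3 and 5, 2469 genes were higher and 2499 lower of 16869 tested. Of these, 2260 and 2250 were among those called with all libraries. The shares over all genes tested are the background for the counts of gene lists below. In the plot of fold change against level, the called genes spread to larger positive than negative values at low expression.

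**Figure D1:**
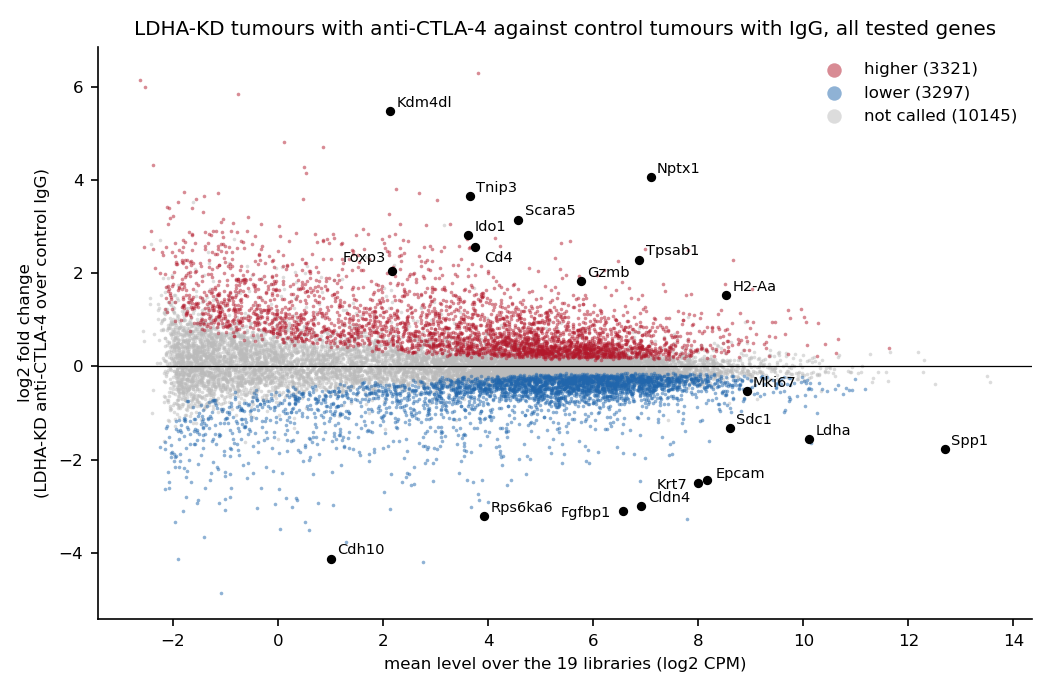
Log2 fold change of LDHA-KD anti-CTLA-4 over control IgG tumours (y axis) against the mean log2 CPM over the 19 libraries (x axis) for the 16763 tested genes. Red points are the 3321 higher genes, blue points the 3297 lower genes and grey points the genes that did not pass the test. Lymphocyte, mast cell and class II genes such as Cd4, Tpsab1 and H2-Aa lie above 0, and Ldha, Spp1, Epcam and Cldn4 lie below it.

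The rises with the largest fold changes were led by genes not known as lymphocyte genes. Kdm4dl (chromosome 9, 14450836 to 14452022 on the minus strand), annotated as an unprocessed pseudogene of the histone demethylase family, had 9.35, 9.07, 5.14, 9.02 and 6.31 CPM in LDHA-KD anti-CTLA-4 tumours, against 0.212, 0.0870, 0.216 and 0.171 CPM in control IgG tumours. Its log2 fold change was 5.47 (adjusted p = 2.54e-09, SE 0.34). Nptx1, which encodes a secreted pentraxin known from synapses, had 268, 259.9, 157, 290.5 and 242 CPM in LDHA-KD anti-CTLA-4 tumours, against 12.8, 18.5, 17.5 and 9.47 CPM in control IgG tumours, a log2 fold change of 4.06 (adjusted p = 6.57e-09, SE 0.28). For both genes all 5 LDHA-KD anti-CTLA-4 tumours lay far above all 4 control IgG tumours, and replicate 3 was the lowest of its group. Both were also high in LDHA-KD IgG tumours, with means of 8.5 and 235 CPM, and low in control anti-CTLA-4 tumours, with means of 0.0842 and 29.1 CPM.

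The next genes among the 12 largest rises included the G protein subunit Gnao1 (3.73), the NF-kB regulator Tnip3 (3.66), the ferritin receptor Scara5 (3.15), the bone matrix protein Ibsp (3.13) and the neuropeptide Grp (3.03). Tnip3 had the tightest replicates of these, with 23 ± 2.06 CPM in LDHA-KD anti-CTLA-4 tumours (SD, n = 5), against 1.82 ± 0.522 CPM in control IgG tumours (n = 4), and a log2 fold change of 3.66 (adjusted p = 2.89e-11, SE 0.16). The same 12 held immune genes as well. They were the immunoglobulin light chain constant region Igkc (3.79), the lymphocyte GTPase Gimap3 (3.06), the mast cell receptor Mrgprb1 (3.04), the costimulatory receptor Cd28 (2.95) and the T cell adaptor Sh2d2a (2.85). All 12 had every LDHA-KD anti-CTLA-4 tumours library above every control IgG tumours library, a property the selection required.

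The largest falls included genes of cell adhesion and epithelial junctions beside genes of varied function. Cdh10, a classical cadherin, had 0.512, 0.432, 0.2, 0.147 and 0.133 CPM in LDHA-KD anti-CTLA-4 tumours, against 5.69, 3.05, 2.65 and 8.75 CPM in control IgG tumours, a log2 fold change of -4.12 (adjusted p = 3.69e-06, SE 0.49). Cldn4, a tight junction claudin of epithelia, had 28.9, 39.2, 26.1, 21.4 and 26.1 CPM in LDHA-KD anti-CTLA-4 tumours, against 260.4, 257, 204 and 185 CPM in control IgG tumours, with a log2 fold change of -2.998 (adjusted p = 5.52e-10, SE 0.17). The fall of Cldn4 was even across libraries, while Cdh10 was nearly lost in replicates 3, 4 and 5 and spread widely among the controls. Others were the laminin chain Lama3 (-3.26), the kinase Rps6ka6 (-3.21), the fibroblast growth factor carrier Fgfbp1 (-3.10), Megf6 (-3.07), Fam83a (-3.02), the metalloprotease Adamts8 (-2.91), the arginine deiminase Padi3 (-2.73), the ligand Wnt10b (-2.70), the glycosyltransferase B4galnt3 (-2.55) and the proton channel Otop1 (-2.53). In LDHA-KD IgG tumours the mean of Cldn4 was 32.5 CPM, close to the 28.3 CPM of the combination, against 217 CPM in control anti-CTLA-4 tumours.

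The combined effect was next set beside the other arms, which share libraries with it. LDHA-KD IgG tumours differed from control IgG tumours at 2814 higher and 2938 lower genes (34.3% of genes tested). LDHA-KD anti-CTLA-4 tumours differed from control anti-CTLA-4 tumours at 3390 higher and 3321 lower genes (40% of genes tested). No gene passed between LDHA-KD anti-CTLA-4 tumours and LDHA-KD IgG tumours by edgeR, where 1987 genes had an unadjusted p under 0.05 and the smallest adjusted p was 0.293. For that contrast limma voom also called 0 genes, DESeq2 called 44 higher and 6 lower, and edgeR called 1 gene higher when LDHA-KD anti-CTLA-4 tumours replicate 1 was left out. Between control anti-CTLA-4 tumours and control IgG tumours edgeR called 0 genes as well (1346 with an unadjusted p under 0.05), limma voom 0 and DESeq2 11 higher and 0 lower. The interaction of knockdown and blockade gave 0 genes by edgeR, DESeq2 and limma voom. By edgeR 415 had an unadjusted p under 0.05, fewer than that threshold passes by chance. With these numbers of tumours a p above the threshold does not show that the arms were alike.

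Genes beyond all other arms were sought with an intersection-union test, which takes the largest of the 3 p-values for LDHA-KD anti-CTLA-4 tumours against each other group. It called 0 genes higher and 0 lower, with 398 higher and 219 lower at an unadjusted p under 0.05. DESeq2 and limma voom p-values gave 0 in each direction too, as did leaving out any library. The genes nearest to the threshold between LDHA-KD anti-CTLA-4 tumours and LDHA-KD IgG tumours, chosen by their p after values were seen, included Ctla4 itself. Ctla4 had 12, 9.83, 16.4, 16.9 and 19.4 CPM in LDHA-KD anti-CTLA-4 tumours, against 3.7, 5.28, 3.0 and 3.28 CPM in control IgG tumours. It averaged 8.55 CPM in LDHA-KD IgG tumours and 6.5 CPM in control anti-CTLA-4 tumours. The log2 fold change was 1.97 (adjusted p = 1.04e-06, SE 0.21) for the combination over control IgG tumours and 0.80 (adjusted p = 0.293, SE 0.19) for blockade within LDHA-KD tumours, where DESeq2 gave an adjusted p of 0.0258. Mmp12, a macrophage elastase, averaged 500.2 CPM in LDHA-KD anti-CTLA-4 tumours and 180.3 CPM in LDHA-KD IgG tumours, a log2 fold change of 1.47 (DESeq2 adjusted p = 0.0429, edgeR 0.293). Its 818 and 828 CPM in LDHA-KD anti-CTLA-4 tumours replicates 3 and 5 were the highest of the group, against 204 to 415 CPM in the other 3. Without those 2 libraries 364 of 16869 genes had an unadjusted p under 0.05 in this contrast, against 1987 with them. The 364 are fewer than that threshold passes by chance, and the fit held fewer tumours. Its smallest adjusted p by edgeR was 0.0891, against 0.293 with all libraries.

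T cell genes rose together. Of 24 T cell genes that passed the filter on low counts, 21 were higher and 0 lower, with a median log2 fold change of 2.48, against 19.8% higher and a median of 0.0056 over all genes tested. Leaving out LDHA-KD anti-CTLA-4 tumours replicates 3 and 5 left 21 higher and 1 lower. Cd3d, a CD3 chain needed for T cell receptor signalling, had 7.0, 8.59, 11.7, 12.5 and 8.12 CPM in LDHA-KD anti-CTLA-4 tumours, against 0.979, 2.38, 1.54 and 1.05 CPM in control IgG tumours. All 5 LDHA-KD anti-CTLA-4 tumours lay above all 4 control IgG tumours, and its log2 fold change was 2.69 (adjusted p = 2.61e-07, SE 0.26). The helper coreceptor Cd4 had 12.6, 23.4, 29.9, 29 and 24.9 CPM in LDHA-KD anti-CTLA-4 tumours, against 2.28, 6.18, 4.36 and 3.54 CPM in control IgG tumours, and again the groups did not overlap, with replicate 1 the lowest of its group and a log2 fold change of 2.55 (adjusted p = 2.48e-06, SE 0.29). The cytotoxic coreceptor Cd8a had 3.46, 1.11, 8.14, 5.81 and 4.5 CPM in LDHA-KD anti-CTLA-4 tumours, against 0.503, 1.31, 0.487 and 0.998 CPM in control IgG tumours. Here replicate 2 lay within the range of the controls while the other 4 were above it, and the log2 fold change was 2.49 (adjusted p = 1.96e-04, SE 0.44). The kinase Lck (1.96), Cd3g (2.55), Cd3e (2.80), Themis (2.68) and the receptor constant region Trbc2 (2.56) were also called. Thy1 (-0.22 (adjusted p = 0.262, SE 0.15)), Tcf7 (0.27 (adjusted p = 0.0840, SE 0.12)) and Trbc1 (0.54 (adjusted p = 0.0793, SE 0.24)) did not pass. Thy1 is also carried by fibroblasts.

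**Figure D2:**
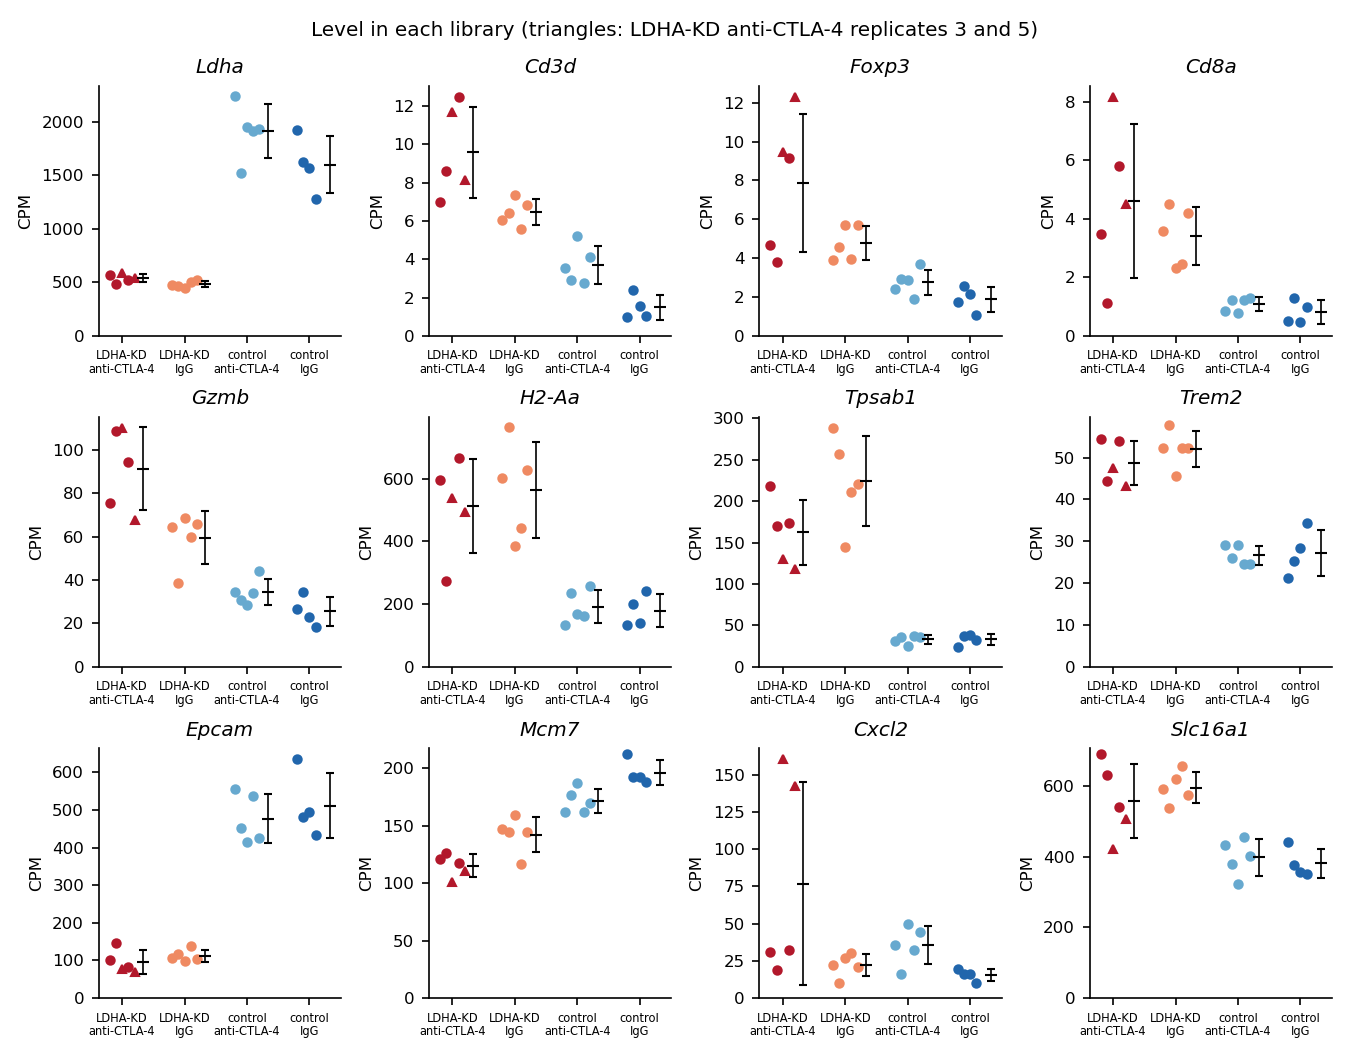
CPM of 12 genes in each library (y axes) of the 4 groups, from left LDHA-KD with anti-CTLA-4, LDHA-KD with IgG, control with anti-CTLA-4 and control with IgG. Triangles mark replicates 3 and 5 of the first group, and bars give the mean ± SD. The plot shows Ldha low in both LDHA-KD arms, Cd3d and H2-Aa high in both, and Cxcl2 high mainly in the triangles.

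Regulatory T cell genes split into a part that rose and a part that did not pass. Of 15, 9 were higher and 0 lower (median 1.53), and the same counts were found without replicates 3 and 5. Foxp3 (chromosome X, 7573644 to 7595245 on the plus strand), which defines the lineage, had 4.7, 3.78, 9.45, 9.14 and 12.3 CPM in LDHA-KD anti-CTLA-4 tumours, against 1.75, 2.58, 2.16 and 1.08 CPM in control IgG tumours. Its lowest values among LDHA-KD anti-CTLA-4 tumours, in replicates 1 and 2, still lay above every control, and the log2 fold change was 2.05 (adjusted p = 5.66e-05, SE 0.32). Tnfrsf18, which encodes the receptor GITR, had 11.5, 12, 13.2, 15.6 and 11.4 CPM in LDHA-KD anti-CTLA-4 tumours, against 1.64, 3.34, 3.19 and 2.54 CPM in control IgG tumours, a log2 fold change of 2.25 (adjusted p = 1.99e-07, SE 0.21). The libraries did not overlap and the spread among LDHA-KD anti-CTLA-4 tumours was small. The chemokine receptor Ccr8 (2.21), Tnfrsf4, which encodes OX40 (2.08), the interleukin-2 receptor chain Il2ra (2.00), Ikzf4 (2.07) and the integrin Itgae (1.53) were higher too. Ikzf2 (-0.14 (adjusted p = 0.435, SE 0.14)), Nrp1 (-0.09 (adjusted p = 0.606, SE 0.14)), Lrrc32 (0.31 (adjusted p = 0.278, SE 0.22)) and Il10 (0.52 (adjusted p = 0.359, SE 0.43)) did not pass. Several of these genes are also made by activated conventional T cells, and Nrp1 by vessels. Foxp3 averaged 4.78 CPM in LDHA-KD IgG tumours and 2.76 CPM in control anti-CTLA-4 tumours, with log2 fold changes over control IgG tumours of 1.33 and 0.54. Between LDHA-KD anti-CTLA-4 tumours and LDHA-KD IgG tumours it was 0.72 (adjusted p = 0.337, SE 0.28).

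Cytotoxic and natural killer genes were higher. Of 15 cytotoxic lymphocyte genes 11 were higher and 2 lower (median 1.74, 10 and 2 without replicates 3 and 5), and of 9 natural killer cell genes all 9 were higher (median 2.04, also 9 without them). Gzmb, the granzyme that triggers apoptosis in target cells, had 75.5, 109, 110.2, 94.2 and 67.7 CPM in LDHA-KD anti-CTLA-4 tumours, against 26.5, 34.3, 23 and 18.3 CPM in control IgG tumours. The groups were well apart, and the log2 fold change was 1.84 (adjusted p = 1.29e-06, SE 0.20). Perforin, encoded by Prf1, had 4.86, 1.76, 13.5, 5.86 and 6.98 CPM in LDHA-KD anti-CTLA-4 tumours, against 0.794, 1.48, 0.541 and 0.884 CPM in control IgG tumours. Replicate 3 was by far the highest and replicate 2 lay just above the highest control, with a log2 fold change of 2.83 (adjusted p = 4.52e-05, SE 0.43). The receptor genes Klrc1 (2.71), Klrc2 (2.20), Klrd1 (2.40) and Ncr1 (2.30), the cytokine receptor chain Il2rb (1.75) and the chemokine Xcl1 (2.04) rose. Replicate 2 was the lowest LDHA-KD anti-CTLA-4 tumours library for Klrc1, Klrc2, Klrd1 and Xcl1, as for Cd8a and Prf1.

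A pair of the cytotoxic genes fell. Eomes, a transcription factor of effector and memory lymphocytes, had 2.33, 2.03, 2.78, 2.43 and 2.26 CPM in LDHA-KD anti-CTLA-4 tumours, against 6.19, 6.67, 4.63 and 5.22 CPM in control IgG tumours, with no overlap and a log2 fold change of -1.26 (adjusted p = 3.25e-06, SE 0.15). Gzme, one of a cluster of related granzyme genes whose reads counting can split, had 1.7, 1.54, 6.62, 3.11 and 4.47 CPM in LDHA-KD anti-CTLA-4 tumours, against 11.6, 6.73, 7.3 and 9.21 CPM in control IgG tumours. It was also below every control, with a log2 fold change of -1.32 (adjusted p = 0.00281, SE 0.32) with all libraries and -2.04 without replicates 3 and 5. Gzmc (0.85 (adjusted p = 0.151, SE 0.46)) and Gzmd (0.23 (adjusted p = 0.742, SE 0.49)), its neighbours in that cluster, did not pass. The related factor Tbx21, which drives type 1 helper and cytotoxic programmes, had 1.14, 0.486, 2.21, 1.64 and 1.54 CPM in LDHA-KD anti-CTLA-4 tumours, against 0.159, 0.116, 0.135 and 0.257 CPM in control IgG tumours, higher in every LDHA-KD anti-CTLA-4 tumours library with a log2 fold change of 3.05 (adjusted p = 1.67e-05, SE 0.42).

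Among 11 helper T cell cytokine and effector genes, 6 were higher and 1 lower, a count that fell to 3 and 2 without replicates 3 and 5. Ifng, the main cytokine of type 1 responses, had 2.49, 0.837, 3.03, 2.18 and 1.92 CPM in LDHA-KD anti-CTLA-4 tumours, against 0.714, 0.754, 0.298 and 0.741 CPM in control IgG tumours. All were low, replicate 2 was barely above the controls, and the log2 fold change was 1.74 (adjusted p = 0.00802, SE 0.48). Il13 rose by 1.13 (adjusted p = 0.0114, SE 0.33) with all libraries, and was at 1.002 without replicates 3 and 5, with an adjusted p of 0.056. Tnf (0.56 (adjusted p = 0.134, SE 0.29)), Il4 (0.05 (adjusted p = 0.936, SE 0.41)) and Csf2 (-0.49 (adjusted p = 0.194, SE 0.29)) did not pass. Of 12 checkpoint and exhaustion genes 9 were higher and 0 lower (median 1.19, the same 9 and 0 in number without replicates 3 and 5). Icos, an inducible costimulator, had 23.6, 29.9, 39.1, 42.4 and 35 CPM in LDHA-KD anti-CTLA-4 tumours, against 3.25, 9.34, 5.6 and 4.45 CPM in control IgG tumours. It was several-fold higher in every LDHA-KD anti-CTLA-4 tumours library, with a log2 fold change of 2.59 (adjusted p = 6.10e-07, SE 0.27). Tox (3.07), Cd96 (2.73), Cd101 (1.70), Lag3 (1.43) and Pdcd1 (1.15), which encodes PD-1, were higher. Tigit (0.41 (adjusted p = 0.261, SE 0.28)) and Havcr2 (0.59 (adjusted p = 0.0907, SE 0.27)) did not pass.

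**Figure D3:**
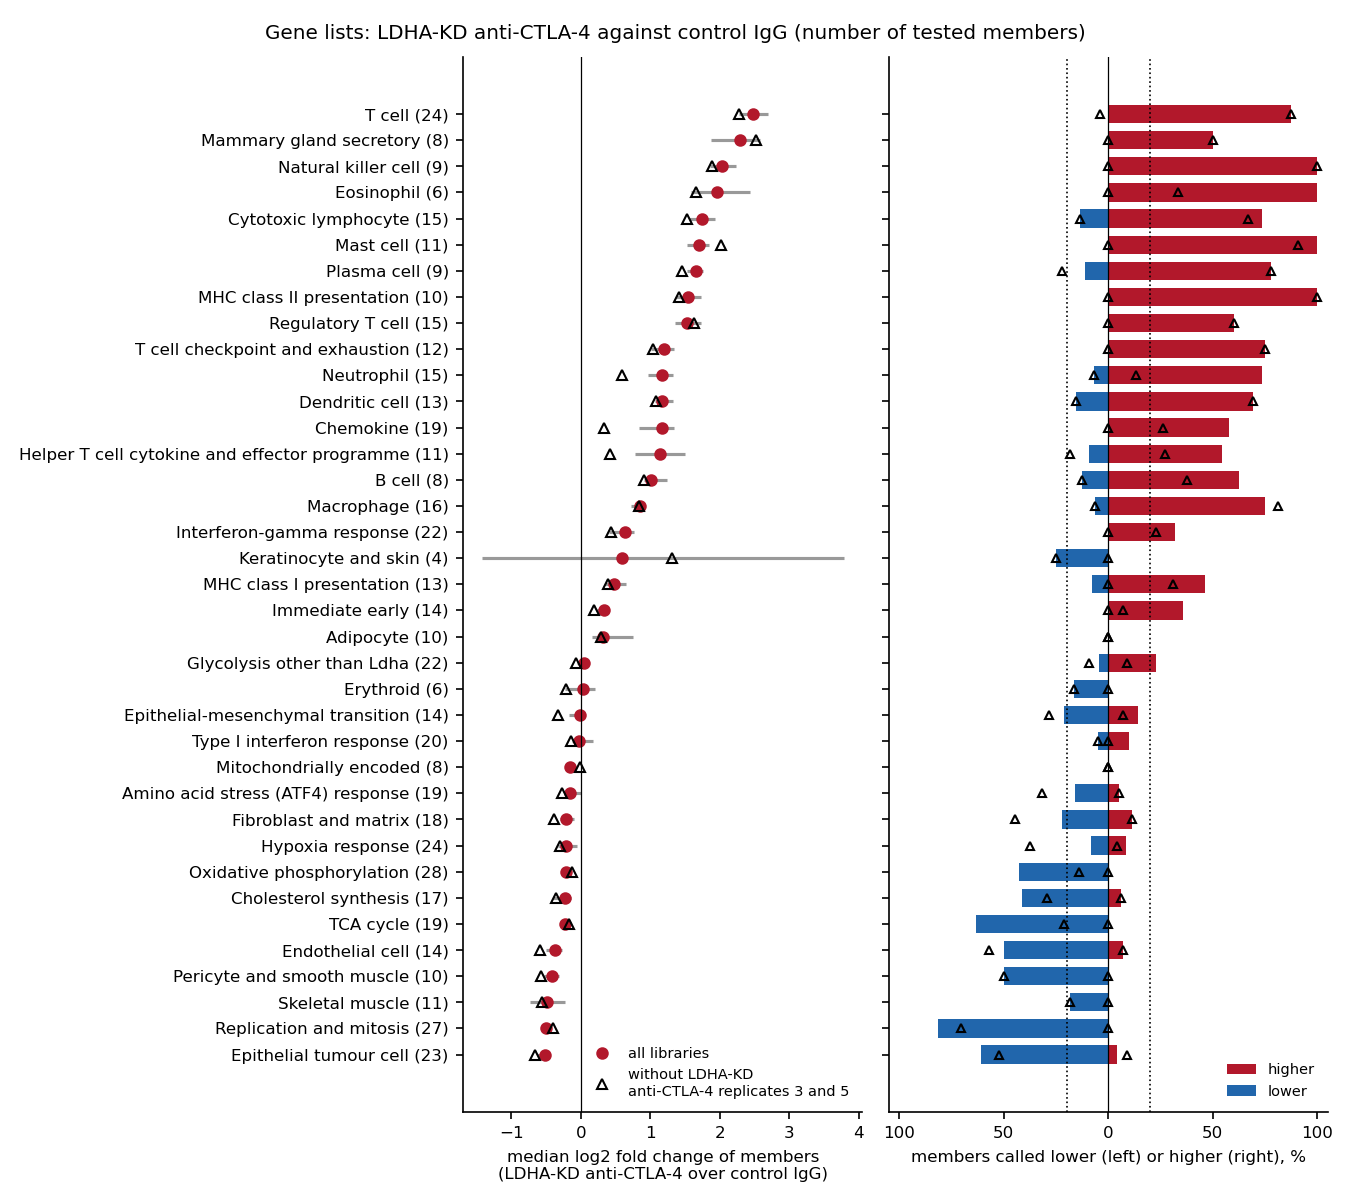
Left, median log2 fold change of LDHA-KD anti-CTLA-4 over control IgG tumours in each of 37 gene lists with all libraries (circles), after leaving out replicates 3 and 5 of the LDHA-KD anti-CTLA-4 group (triangles), and over the leave-one-out fits (grey lines). Right, percent of each list's tested members called lower (to the left) and higher (to the right), with dotted lines at the background of 19.7% lower and 19.8% higher. The T cell list has the highest median (2.48), followed by the mammary secretory (2.30) and natural killer (2.04) lists, and the replication list (81.5%), the tricarboxylic acid cycle list (63.2%) and the epithelial list (60.9%) reach farthest to the left in percent lower.

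Genes of antibody chains rose, with low levels in the controls. Of 9 plasma cell genes 7 were higher and 1 lower (median 1.66), and 7 and 2 without replicates 3 and 5. Igkc had 5.88, 13.8, 7.57, 11.2 and 10.5 CPM in LDHA-KD anti-CTLA-4 tumours, against 0.423, 0.696, 0.676 and 1.03 CPM in control IgG tumours. Its log2 fold change was 3.79 (adjusted p = 4.27e-05, SE 0.57), and replicate 1 was the lowest LDHA-KD anti-CTLA-4 tumours library. Jchain, which joins antibody polymers, had 1.56, 4.16, 1.93, 3.14 and 3.27 CPM in LDHA-KD anti-CTLA-4 tumours, against 0.185, 0.319, 0.162 and 0.257 CPM in control IgG tumours, with a log2 fold change of 3.59 (adjusted p = 9.35e-05, SE 0.58). The member that fell, Sdc1 (-1.32 (adjusted p = 1.52e-07, SE 0.12)), is a plasma cell surface marker that epithelial cells also carry at high levels, and it had 223 ± 19.5 CPM in LDHA-KD anti-CTLA-4 tumours (SD, n = 5), against 555 ± 90.7 CPM in control IgG tumours (n = 4). The summed level of the plasma cell list, to which Sdc1 and the secretory factor Xbp1 gave most of the reads, was 506 to 573 CPM in LDHA-KD anti-CTLA-4 tumours and 658 to 854 CPM in control IgG tumours. Of 8 B cell genes 5 were higher and 1 lower, and 3 and 1 without replicates 3 and 5. Cd22 (1.56), Fcrla (1.68) and Cd79b (0.88) were higher, Blk (-1.33) was lower, and Cd79a (0.44 (adjusted p = 0.314, SE 0.34)) and Ms4a1 (0.47 (adjusted p = 0.412, SE 0.44)) did not pass. The summed level of the B cell list was 10.0 to 20.2 CPM in LDHA-KD anti-CTLA-4 tumours and 4.45 to 8.33 CPM in control IgG tumours.

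MHC class II genes, which present peptides to helper T cells, rose as a block. All 10 members that passed the filter were higher (median 1.55), also without replicates 3 and 5. The antigen-binding chain H2-Aa had 595, 273, 538, 666 and 493 CPM in LDHA-KD anti-CTLA-4 tumours, against 132, 199.9, 139 and 242 CPM in control IgG tumours. Replicate 2 was the lowest LDHA-KD anti-CTLA-4 tumours library and came close to the highest control, and the log2 fold change was 1.52 (adjusted p = 1.84e-04, SE 0.27). Ciita, the master activator of class II genes, had 20.9, 10.1, 27.5, 28.8 and 21.5 CPM in LDHA-KD anti-CTLA-4 tumours, against 3.65, 9.72, 6.01 and 10.0 CPM in control IgG tumours, a log2 fold change of 1.57 (adjusted p = 0.00175, SE 0.35). Its replicate 2 lay only just above the highest control. The invariant chain Cd74 (1.67), H2-Eb1 (1.76), H2-Ab1 (1.61) and the peptide loader H2-DMb1 (1.70) were higher too, and replicate 2 was again the lowest LDHA-KD anti-CTLA-4 tumours library for each. H2-Aa averaged 564 CPM in LDHA-KD IgG tumours and 192 CPM in control anti-CTLA-4 tumours.

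Because the class II genes moved together, their promoters were read for the core of the Y box, a shared element bound by the factor NF-Y. The letters TGATTGG, searched on both strands over the 250 bases before the start, stood in 7 of the 8 class II promoters in the RefSeq table (87.5%, H2-DMa without). The share was 8.38% of the promoters of 27025 genes and 10.7% of those of genes tested here. H2-Eb2, counted among the 7, did not pass the filter on low counts. Some of these letters overlap the CCAAT motif read further on, of which ATTGG is the reverse complement. The match describes the sequence and says nothing about binding in these tumours. The 150 bases before the start follow for 3 genes of chromosome 17 that rose, from RefSeq on GRCm38.p6, read 5′ to 3′ on the gene's strand with the match in capitals. They lie at chr17:34287824-34287973 (minus strand), chr17:34305717-34305866 (plus strand) and chr17:34145099-34145248 (plus strand).
H2-Aa: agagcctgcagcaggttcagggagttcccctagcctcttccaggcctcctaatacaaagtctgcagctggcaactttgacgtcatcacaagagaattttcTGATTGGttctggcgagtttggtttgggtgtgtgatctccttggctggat
H2-Eb1: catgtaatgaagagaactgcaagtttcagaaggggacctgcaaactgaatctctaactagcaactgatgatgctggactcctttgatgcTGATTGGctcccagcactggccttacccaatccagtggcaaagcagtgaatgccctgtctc
H2-DMb2: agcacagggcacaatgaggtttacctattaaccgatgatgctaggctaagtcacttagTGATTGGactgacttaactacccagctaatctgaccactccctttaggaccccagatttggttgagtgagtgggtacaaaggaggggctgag
The core starts 50, 61 and 92 bases before the start, read as positions -50, -61 and -92.

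MHC class I genes moved less. Of 13 members 6 were higher and 1 lower (median 0.47), and 4 and 0 without replicates 3 and 5. Nlrc5, the class I counterpart of Ciita, had 118, 89.9, 186, 136 and 152 CPM in LDHA-KD anti-CTLA-4 tumours, against 64.1, 71.6, 38.1 and 68.2 CPM in control IgG tumours. All LDHA-KD anti-CTLA-4 tumours libraries were higher, with a log2 fold change of 1.17 (adjusted p = 7.23e-04, SE 0.24). H2-D1, a classical class I chain, overlapped between groups, with 1896 ± 310.3 CPM in LDHA-KD anti-CTLA-4 tumours (SD, n = 5), against 1259.8 ± 299 CPM in control IgG tumours (n = 4), and rose by 0.59 (adjusted p = 0.00481, SE 0.15). B2m (0.31 (adjusted p = 0.212, SE 0.19)), its partner chain, did not pass. Of 22 interferon-gamma response genes 7 were higher and 0 lower (5 without replicates 3 and 5), a share of 31.8% against the 19.8% of all genes. The tryptophan-degrading enzyme Ido1 had 26.3, 12.1, 23, 29.6 and 26.2 CPM in LDHA-KD anti-CTLA-4 tumours, against 3.31, 3.51, 4.03 and 2.42 CPM in control IgG tumours, well above the controls in all 5 libraries, with a log2 fold change of 2.82 (adjusted p = 3.42e-05, SE 0.41). Cd274, which encodes the checkpoint ligand PD-L1, had 82, 63.7, 244, 119 and 189 CPM in LDHA-KD anti-CTLA-4 tumours, against 47.1, 65.4, 33.5 and 33.7 CPM in control IgG tumours. Its high values were in replicates 3 and 5, replicate 2 lay within the controls, and the log2 fold change was 1.64 (adjusted p = 8.78e-04, SE 0.34) with all libraries and 0.98 without replicates 3 and 5 (adjusted p = 0.0133). Irf1 (0.05 (adjusted p = 0.865, SE 0.20)) and Cxcl10 (0.31 (adjusted p = 0.375, SE 0.26)) did not pass. Of 20 type I interferon response genes 2 were higher (10%) and 1 lower (5%), below the 19.8% and 19.7% of all genes. Without replicates 3 and 5 the counts were 0 and 1. The higher ones, Rsad2 (0.96) and Irf7 (0.39), had log2 fold changes of 0.46 and 0.23 without those libraries and lost the call (adjusted p of 0.111 and 0.247).

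Macrophage genes rose by a smaller factor. Of 16, 12 were higher and 1 lower (median 0.85), and 13 and 1 without replicates 3 and 5. Csf1r, the growth factor receptor of the lineage, had 277, 277, 335, 309.8 and 322 CPM in LDHA-KD anti-CTLA-4 tumours, against 95.3, 181, 191 and 179 CPM in control IgG tumours. The groups did not overlap, control replicate 1 was the lowest, and the log2 fold change was 0.91 (adjusted p = 2.15e-04, SE 0.16). Trem2, a lipid receptor of tumour macrophages, had 54.5, 44.5, 47.5, 54 and 43.3 CPM in LDHA-KD anti-CTLA-4 tumours, against 21.3, 25.2, 28.4 and 34.3 CPM in control IgG tumours, a log2 fold change of 0.84 (adjusted p = 1.59e-05, SE 0.11). The complement genes C1qa (0.93), C1qb (0.84) and C1qc (0.84), Apoe (1.03) and Mrc1 (0.92) followed. Spp1, a secreted matrix protein that macrophages and carcinoma cells both make, went the other way and had 4573, 4205, 2165, 2798 and 1972 CPM in LDHA-KD anti-CTLA-4 tumours, against 14491, 7760.1, 8162 and 12279 CPM in control IgG tumours. It was lower in every LDHA-KD anti-CTLA-4 tumours library, with a log2 fold change of -1.76 (adjusted p = 7.22e-05, SE 0.28).

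Of 13 dendritic cell genes 9 were higher and 2 lower, with the same counts without replicates 3 and 5. The migration receptor Ccr7 (1.94), the progenitor receptor Flt3 (1.46), Xcr1 (1.51), Siglech (1.68), Batf3 (1.19) and Clec9a (1.16) were among the higher. Fscn1 (-0.46), a bundler of actin also made by carcinoma cells, and Zbtb46 (-0.43), also made by endothelium, were lower. Flt3 had 4.32, 4.54, 6.06, 6.45 and 5.94 CPM in LDHA-KD anti-CTLA-4 tumours, against 0.953, 3.13, 2.14 and 1.74 CPM in control IgG tumours, with control replicate 1 well below the other controls.

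All 11 mast cell genes that passed the filter were higher (median 1.70), and 10 without replicates 3 and 5. The tryptase Tpsab1 had 218, 170.3, 130.4, 174 and 119 CPM in LDHA-KD anti-CTLA-4 tumours, against 24.5, 37.4, 39 and 31.9 CPM in control IgG tumours. The log2 fold change was 2.29 (adjusted p = 1.36e-07, SE 0.21). Replicates 3 and 5 were the lowest of the LDHA-KD anti-CTLA-4 tumours libraries here, the reverse of their place for chemokines and neutrophil genes, and the median of the list was 2.02 without them. Tpsb2 (2.07), the chymases Mcpt4 (1.52) and Cma1 (1.71), the protease Cpa3 (1.89) and the IgE receptor chains Fcer1a (1.70) and Ms4a2 (1.22) rose too. Tpsab1 and Tpsb2 are similar tryptases whose reads counting can split. Tpsab1 averaged 224 CPM in LDHA-KD IgG tumours, above the 162 CPM of the combination (log2 fold change between them -0.47 (adjusted p = 0.34, SE 0.18)).

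Neutrophil and chemokine genes rose with all libraries in, but most of these calls were lost without replicates 3 and 5. Of 15 neutrophil genes 11 were higher (73.3%, against 19.8% of all genes) and 1 lower (median 1.17). These counts became 2 and 1 (median 0.59) without those 2 libraries. Over all genes the calls dropped as well, from 3321 higher of 16763 tested to 2469 of 16869. The 2 libraries were picked from these same expression values, so the loss of calls is a description only. Cxcl2, a neutrophil attractant, had 31, 18.8, 160.4, 31.9 and 142 CPM in LDHA-KD anti-CTLA-4 tumours, against 19.3, 15.8, 16.3 and 9.84 CPM in control IgG tumours. Only replicates 3 and 5 were far above the controls. The log2 fold change was 2.33 (adjusted p = 0.00242, SE 0.55) with all libraries and 0.83 without those 2 (adjusted p = 0.0792). Il1b, an inflammatory cytokine, had 246, 158, 530.2, 306 and 499 CPM in LDHA-KD anti-CTLA-4 tumours, against 162, 177, 154 and 156 CPM in control IgG tumours, with replicate 2 inside the range of the controls. Its log2 fold change was 1.097 (adjusted p = 0.00261, SE 0.26) with all libraries and 0.54 without replicates 3 and 5 (adjusted p = 0.0478). Mmp9, a gelatinase that macrophages and tumour cells make too, was lower at -0.99 (adjusted p = 0.0207, SE 0.32). Its log2 fold change was -0.88 without control replicate 3, where the call was lost (adjusted p = 0.0541). With replicates 3 and 5 of LDHA-KD anti-CTLA-4 tumours left out it was -1.60 (adjusted p = 8.66e-04). Ly6g, the surface marker that defines the lineage, did not pass (0.74 (adjusted p = 0.201, SE 0.45)), and averaged 0.647 CPM in LDHA-KD anti-CTLA-4 tumours and 0.387 CPM in control IgG tumours.

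Of 19 chemokine genes 11 were higher (57.9%) and 0 lower (median 1.16). Without replicates 3 and 5, 5 were higher (median 0.34), a share still above that of all genes in that fit (2469 of 16869). Ccl22, a ligand of the receptor CCR4 that regulatory T cells carry, had 16.5, 19, 38.8, 26.5 and 34.6 CPM in LDHA-KD anti-CTLA-4 tumours, against 3.7, 11, 5.63 and 6.07 CPM in control IgG tumours. Every LDHA-KD anti-CTLA-4 tumours library lay above every control, with a log2 fold change of 2.04 (adjusted p = 8.21e-05, SE 0.33). Ccl8, a chemokine that attracts monocytes, had 834, 713, 1432, 1415 and 1228 CPM in LDHA-KD anti-CTLA-4 tumours, against 339, 568, 684 and 353 CPM in control IgG tumours, a log2 fold change of 1.21 (adjusted p = 0.00195, SE 0.28). Cxcl9 (1.70), Ccl5 (1.38), Ccl17 (1.62) and Cxcl13 (1.29) were higher, and Cxcl1 (0.38 (adjusted p = 0.339, SE 0.31)), Cxcl5 (0.61 (adjusted p = 0.304, SE 0.46)) and Cxcl10 (0.31 (adjusted p = 0.375, SE 0.26)) did not pass. The summed chemokine level was 1203 to 2507 CPM in LDHA-KD anti-CTLA-4 tumours and 862 to 1181 CPM in control IgG tumours. All 6 eosinophil genes that passed the filter were called higher (median 1.96). Of them 2 were left (median 1.66) without replicates 3 and 5, and 3 were left without control replicate 1. Their summed level was 5.28 to 30.5 CPM in LDHA-KD anti-CTLA-4 tumours and 1.56 to 8.47 CPM in control IgG tumours. Alox15 had 2.07, 5.64, 14.5, 9.66 and 9.16 CPM in LDHA-KD anti-CTLA-4 tumours, against 0.291, 2.61, 1.76 and 0.627 CPM in control IgG tumours, and replicate 1 lay inside the range of the controls. Its log2 fold change was 2.64 (adjusted p = 0.00114, SE 0.56) with all libraries and 2.13 without replicates 3 and 5 (adjusted p = 0.0104).

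**Figure D4:**
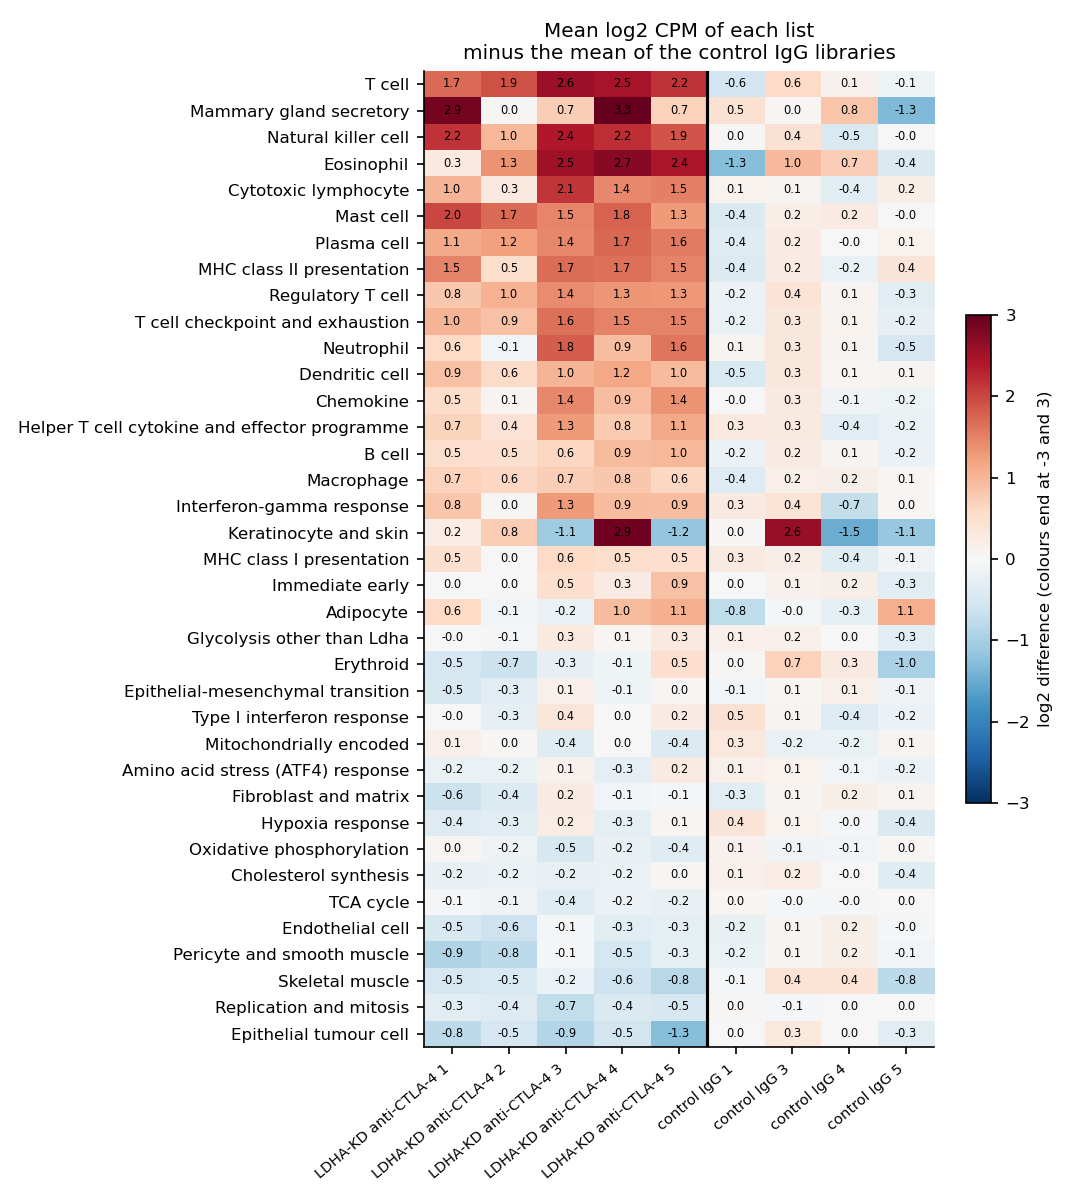
Mean log2 CPM of each gene list in each of the 9 libraries, minus the mean of the control IgG libraries. Columns run from LDHA-KD anti-CTLA-4 replicates 1 to 5 to control IgG replicates 1, 3, 4 and 5, and rows are the 37 lists. T cell and natural killer rows are above the controls in all 5 LDHA-KD anti-CTLA-4 libraries, while neutrophil and chemokine rows are highest in replicates 3 and 5.

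Genes of the carcinoma cells' epithelial programme fell. Of 23 epithelial genes 14 were lower and 1 higher (median -0.52), and 12 and 2 without replicates 3 and 5, against 19.7% lower over all genes tested. Epcam (chromosome 17, 87635979 to 87651129 on the plus strand), an epithelial adhesion molecule, had 102, 147, 77.1, 81.2 and 68.7 CPM in LDHA-KD anti-CTLA-4 tumours, against 637, 481, 495 and 434 CPM in control IgG tumours. The groups were far apart, and the log2 fold change was -2.43 (adjusted p = 1.70e-08, SE 0.18). Krt7, a keratin of simple and glandular epithelia, had 101, 125, 69.9, 67.1 and 57.4 CPM in LDHA-KD anti-CTLA-4 tumours, against 537, 432, 409.6 and 518 CPM in control IgG tumours, a log2 fold change of -2.49 (adjusted p = 5.29e-08, SE 0.21). Both were lower still in replicates 3, 4 and 5 than in 1 and 2. The laminin chain Lamb3 (-1.90), Krt14 (-1.62), Ocln (-1.39), Krt18 (-0.52) and Krt8 (-0.45) were lower as well.

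The fall did not extend to every epithelial gene. Cldn7, another claudin, had 24.9, 23.3, 22.7, 22.4 and 24.5 CPM in LDHA-KD anti-CTLA-4 tumours, against 9.1, 8.12, 10.3 and 9.75 CPM in control IgG tumours, more than 2-fold higher in every LDHA-KD anti-CTLA-4 tumours library, with a log2 fold change of 1.34 (adjusted p = 1.82e-08, SE 0.10). Cdh1, which encodes E-cadherin, averaged 438 ± 34.1 CPM in LDHA-KD anti-CTLA-4 tumours (SD, n = 5), against 449.8 ± 63.6 CPM in control IgG tumours (n = 4) and did not pass (-0.04 (adjusted p = 0.782, SE 0.10)). Krt19 (0.26 (adjusted p = 0.353, SE 0.21)), Tjp1 (-0.13 (adjusted p = 0.416, SE 0.12)) and Itgb4 (-0.14 (adjusted p = 0.484, SE 0.15)) did not pass. The summed level of the list was 3695 to 5196 CPM in LDHA-KD anti-CTLA-4 tumours and 6927 to 8965 CPM in control IgG tumours. Of 14 genes of epithelial-mesenchymal transition 2 were higher (14.3%) and 3 lower (21.4%) with all libraries, near or below the 19.8% and 19.7% of all genes (median -0.01). Without replicates 3 and 5 the counts were 1 and 4 (median -0.32), and 4 of 14 is above the share over all genes in that fit (2499 lower of 16869). With all libraries Zeb2 (0.55) was higher and Tgfb2 (-1.71) and Twist1 (-0.54) were lower. The call on Tgfbi (0.55) was lost without replicates 3 or 5 of LDHA-KD anti-CTLA-4 tumours or replicates 1 or 5 of control IgG tumours (0.24 without both 3 and 5 of LDHA-KD anti-CTLA-4 tumours), and the call on Prrx1 (-0.47, and -0.78 without both) was lost without LDHA-KD anti-CTLA-4 tumours replicates 2 or 4 or control IgG tumours replicate 4. Vim (0.30 (adjusted p = 0.196, SE 0.18)), Snai1 (-0.08 (adjusted p = 0.698, SE 0.14)) and Zeb1 (0.05 (adjusted p = 0.747, SE 0.11)) did not pass.

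Replication and mitosis genes fell by a modest factor. Of 27, 22 were lower and 0 higher (median -0.50), and 19 and 0 without replicates 3 and 5. Mcm7, a subunit of the replicative helicase, had 121, 127, 101, 118 and 111 CPM in LDHA-KD anti-CTLA-4 tumours, against 212, 193, 193 and 188 CPM in control IgG tumours. The log2 fold change was -0.77 (adjusted p = 1.03e-06, SE 0.08). Mcm3 (-0.66 (adjusted p = 2.83e-05, SE 0.10)), the mitotic kinase Aurka (-0.64 (adjusted p = 2.61e-05, SE 0.09)) and the spindle factor Tpx2 (-0.56 (adjusted p = 5.40e-05, SE 0.09)) were also without overlap between the groups. Mki67 (-0.53), a proliferation marker, the kinase Cdk1 (-0.68), the cyclins Ccnb1 (-0.58) and Ccnb2 (-0.48) and thymidylate synthase Tyms (-0.80) fell. E2f1 (-0.00 (adjusted p = 0.977, SE 0.08)) and Ccne1 (0.09 (adjusted p = 0.505, SE 0.10)) did not pass. In LDHA-KD IgG tumours 16 of the 27 were lower than in control IgG tumours, against 17.5% of all genes in that comparison. Mcm7 averaged 142 CPM in LDHA-KD IgG tumours and 172 CPM in control anti-CTLA-4 tumours. Its log2 fold change of LDHA-KD anti-CTLA-4 tumours over LDHA-KD IgG tumours was -0.30 (adjusted p = 0.293, SE 0.08).

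Promoters of this list were read for CCAAT boxes, which often occur in cell cycle promoters. The letters CCAAT stood on either strand in 19 of the 23 promoters at hand (82.6%), over the same 250 bases. The share was 37.5% of the promoters of 27025 genes and 39.8% of those of genes tested here. The letters TTTGAA, another element known from cell cycle promoters, were present in 7 of 23 (30.4%), against 18.3% and 13.2%. RefSeq sequences of 150 bases on GRCm38.p6 follow for 3 genes that fell and hold more than 1 copy, with CCAAT, or ATTGG for the opposite strand, in capitals. They lie at chr9:70421555-70421704 (minus strand), chr13:100786487-100786636 (minus strand) and chr1:20820313-20820462 (minus strand).
Ccnb2: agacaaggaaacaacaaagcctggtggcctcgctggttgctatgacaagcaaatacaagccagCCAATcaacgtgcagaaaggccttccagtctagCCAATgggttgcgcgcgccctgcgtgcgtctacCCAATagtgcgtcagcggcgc
Ccnb1: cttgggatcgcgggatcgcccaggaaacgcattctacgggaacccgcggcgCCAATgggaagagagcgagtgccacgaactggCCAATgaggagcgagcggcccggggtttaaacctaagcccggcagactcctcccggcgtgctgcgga
Mcm3: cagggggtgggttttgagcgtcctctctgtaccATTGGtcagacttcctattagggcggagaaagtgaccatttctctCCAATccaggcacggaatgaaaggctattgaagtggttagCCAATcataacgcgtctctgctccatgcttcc

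Several endothelial genes fell. Of 14 endothelial genes 7 were lower and 1 higher (median -0.37), and 8 and 1 without replicates 3 and 5. The sialomucin Emcn had 22.6, 21.3, 24.5, 20.7 and 19.1 CPM in LDHA-KD anti-CTLA-4 tumours, against 59.8, 43.1, 38.7 and 43.5 CPM in control IgG tumours, without overlap, and a log2 fold change of -1.09 (adjusted p = 3.38e-06, SE 0.13). Cldn5 (-1.39 (adjusted p = 3.84e-06, SE 0.17)), the tight junction claudin of endothelium, Cdh5 (-0.63) and Esam (-0.61) were lower. Eng, an accessory receptor for transforming growth factor beta, was higher, at 98.7 ± 12.4 CPM in LDHA-KD anti-CTLA-4 tumours (SD, n = 5), against 65.1 ± 13.3 CPM in control IgG tumours (n = 4) and 0.60 (adjusted p = 5.10e-04, SE 0.12). Pecam1 (-0.11 (adjusted p = 0.511, SE 0.13)), Kdr (-0.35 (adjusted p = 0.169, SE 0.20)) and Vwf (0.14 (adjusted p = 0.551, SE 0.18)) did not pass. In LDHA-KD IgG tumours 10 of the 14 were lower than in control IgG tumours, against 17.5% of all genes in that comparison.

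Contractile genes were among the clearest stromal falls. Tagln had 44.9, 46.3, 65.5, 53.6 and 64.3 CPM in LDHA-KD anti-CTLA-4 tumours, against 179, 133, 135 and 147 CPM in control IgG tumours, a log2 fold change of -1.43 (adjusted p = 1.19e-07, SE 0.13). Acta2, smooth muscle actin, had 47.2, 67, 105.3, 76.1 and 101 CPM in LDHA-KD anti-CTLA-4 tumours, against 179.7, 181, 175 and 147 CPM in control IgG tumours, with a log2 fold change of -1.11 (adjusted p = 8.65e-05, SE 0.18). Both were lower in every LDHA-KD anti-CTLA-4 tumours library, with replicates 3 and 5 the nearest to the controls. Of 10 pericyte and smooth muscle genes 5 were lower and 0 higher, also without those libraries, with the proteoglycan Cspg4 (-1.78), calponin Cnn1 (-1.44) and Mcam (-1.09) among them. Carcinoma cells can also make some of these genes.

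Of 18 fibroblast and matrix genes 4 were lower (22.2%) and 2 higher (11.1%) with all libraries, near or below the 19.7% and 19.8% of all genes. The counts became 8 and 2 without LDHA-KD anti-CTLA-4 tumours replicates 3 and 5. There 8 of 18 is above the share over all genes in that fit (2499 lower of 16869). Without control replicate 4, 2 were lower. The higher pair was Dcn and Pdgfra, a proteoglycan and a receptor typical of fibroblasts. Dcn had 211, 243, 580.0, 345 and 322 CPM in LDHA-KD anti-CTLA-4 tumours, against 103, 182, 171 and 172 CPM in control IgG tumours, above the controls in all 5 libraries and highest in replicate 3, with a log2 fold change of 1.11 (adjusted p = 0.00174, SE 0.25). Pdgfra averaged 173 ± 19.2 CPM in LDHA-KD anti-CTLA-4 tumours (SD, n = 5), against 111 ± 17.9 CPM in control IgG tumours (n = 4), with 0.64 (adjusted p = 0.00121, SE 0.14). Collagen genes Col1a1 (-0.22 (adjusted p = 0.535, SE 0.26)) and Col3a1 (0.24 (adjusted p = 0.551, SE 0.29)) did not pass. Sparc had 699, 722, 1499, 938 and 1116 CPM in LDHA-KD anti-CTLA-4 tumours, against 1242, 1407, 1499 and 1398 CPM in control IgG tumours. Replicate 3 equalled the highest control while replicates 1 and 2 were the lowest, and the log2 fold change was -0.48 (adjusted p = 0.0250, SE 0.16) with all libraries and -0.82 without replicates 3 and 5.

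Energy metabolism beyond Ldha showed small changes. Of 22 other glycolysis and lactate transport genes 5 were higher and 1 lower, a share near the 19.8% of all genes, and 2 and 2 without replicates 3 and 5. The lactate transporter Slc16a1 had 690.2, 631, 422, 542 and 507 CPM in LDHA-KD anti-CTLA-4 tumours, against 442, 378, 356 and 352 CPM in control IgG tumours. LDHA-KD anti-CTLA-4 tumours replicates 1 and 2 were the highest and replicate 3 lay below the highest control, with a log2 fold change of 0.55 (adjusted p = 0.00199, SE 0.13). Pfkfb3 (0.83, and 0.46 without replicates 3 and 5) and the transporter Slc16a3 (0.61) were higher. Pfkl (0.30), Slc2a3 (0.75) and Pdk1 (-0.34) were called with all libraries but lost the call when any of several single libraries was left out, and without replicates 3 and 5 Pfkl was at 0.19 and Slc2a3 at 0.21. Gapdh (-0.02 (adjusted p = 0.912, SE 0.11)), Pkm (-0.11 (adjusted p = 0.334, SE 0.09)) and Slc2a1 (0.01 (adjusted p = 0.978, SE 0.26)), the main glucose transporter of carcinomas, did not pass.

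Of 24 hypoxia response genes 2 were higher and 2 lower with all libraries (8.33% each), below the shares over all genes. Without replicates 3 and 5 the counts were 1 and 9, and 9 of 24 is above the share over all genes in that fit (2499 lower of 16869). When single libraries were left out, the count of lower genes lay between 1 and 6. In LDHA-KD IgG tumours 17 of the 24 were lower than in control IgG tumours and 0 higher. Over all genes, 17.5% were lower and 16.8% higher in that comparison. Ddit4, a stress-induced inhibitor of mTOR signalling, had 115, 117, 122, 91.2 and 106 CPM in LDHA-KD anti-CTLA-4 tumours, against 285, 226, 210.4 and 187 CPM in control IgG tumours, and it was lower in every LDHA-KD anti-CTLA-4 tumours library with a log2 fold change of -1.04 (adjusted p = 5.71e-06, SE 0.13). Vegfa (-0.46 (adjusted p = 0.206, SE 0.28)), Adm (-0.79 (adjusted p = 0.0510, SE 0.31)), Ndrg1 (-0.52 (adjusted p = 0.0675, SE 0.22)) and Car9 (0.03 (adjusted p = 0.906, SE 0.19)) did not pass. Stc2 had 3.6, 6.18, 15.3, 6.64 and 9.74 CPM in LDHA-KD anti-CTLA-4 tumours, against 4.39, 4.12, 3.92 and 3.79 CPM in control IgG tumours. Replicates 3 and 5 were the highest, and its log2 fold change was 1.03 (adjusted p = 0.0156, SE 0.32) with them and 0.43 without them (adjusted p = 0.248).

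Of 28 oxidative phosphorylation genes of the nucleus 12 were lower (42.9%) and 0 higher (median -0.21). Of 19 tricarboxylic acid cycle genes 12 were lower (63.2%) and 0 higher (median -0.23), against 19.7% lower over all genes tested. Each count became 4 without LDHA-KD anti-CTLA-4 tumours replicates 3 and 5, where 2499 of 16869 genes tested were lower. A count of 4 of 28 is near that share. The oxidative phosphorylation count was 7 without LDHA-KD anti-CTLA-4 tumours replicate 3 or without control replicate 5. The tricarboxylic acid cycle count was 7 without control replicate 1. Idh3a, a subunit of isocitrate dehydrogenase, had 107, 118, 89.5, 102 and 96.7 CPM in LDHA-KD anti-CTLA-4 tumours, against 165, 153, 145 and 143 CPM in control IgG tumours. The groups did not overlap, and the log2 fold change was -0.56 (adjusted p = 9.97e-06, SE 0.07). Ndufa1, a subunit of respiratory complex I, had 50.8, 37.3, 34.9, 40.3 and 32.7 CPM in LDHA-KD anti-CTLA-4 tumours, against 66.1, 51.6, 58.6 and 57.7 CPM in control IgG tumours, also without overlap, and a log2 fold change of -0.58 (adjusted p = 3.45e-04, SE 0.11). Of 8 mitochondrially encoded genes 0 were called by edgeR, and their log2 fold changes lay between -0.34 and 0.30.

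Of 19 genes of the amino acid stress response led by ATF4, 1 was higher (5.26%) and 3 lower (15.8%) with all libraries, below the shares over all genes. Without replicates 3 and 5 the counts were 1 and 6, and 6 of 19 is above the share over all genes in that fit (2499 lower of 16869). Trib3, a pseudokinase induced by that response, had 21, 20.1, 22.5, 15.4 and 23.6 CPM in LDHA-KD anti-CTLA-4 tumours, against 49.98, 38.9, 35.4 and 36.9 CPM in control IgG tumours, lower in every library with a log2 fold change of -0.97 (adjusted p = 3.41e-06, SE 0.12). Slc7a11, the cystine importer, had 23.9, 28.7, 53.7, 21.9 and 44.9 CPM in LDHA-KD anti-CTLA-4 tumours, against 17.4, 18, 12.7 and 16.3 CPM in control IgG tumours, higher in every library with replicates 3 and 5 at the top and a log2 fold change of 1.103 (adjusted p = 6.53e-04, SE 0.22), which was 0.62 without them (adjusted p = 0.00559). Of 17 cholesterol synthesis genes 7 were lower and 1 higher, and 5 and 1 without replicates 3 and 5. Cyp51 had 99.3, 95.5, 79.7, 89.4 and 94.7 CPM in LDHA-KD anti-CTLA-4 tumours, against 194, 167, 127 and 116 CPM in control IgG tumours. Its log2 fold change was -0.72 (adjusted p = 4.84e-04, SE 0.14), and control replicates 4 and 5 lay closer to the LDHA-KD anti-CTLA-4 tumours libraries than control replicates 1 and 3. Fdft1 (-0.63) was lower, and Dhcr7 (0.44) was higher.

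Genes of neighbouring normal tissue were checked because implanted tumours can carry it. Of 10 adipocyte genes 0 were called by edgeR, and their summed level was 99.8 to 225 CPM in LDHA-KD anti-CTLA-4 tumours and 108 to 255 CPM in control IgG tumours. Of 11 skeletal muscle genes the troponins Tnnt3 (-1.72) and Tnni2 (-1.19) were lower (18.2%), a share near the 19.7% of all genes. Acta1 (-0.14 (adjusted p = 0.804, SE 0.39)) and Ckm (-0.54 (adjusted p = 0.355, SE 0.45)) did not pass. Of 4 skin genes Krt10 (-1.01) was lower (25%), and Krt2, which failed the filter, is a defining keratin listed at 0 in these libraries. Of 8 mammary secretory genes 4 were higher and 0 lower, a count that was 2 without control replicate 3. The milk protein gene Csn3 had 26.3, 6.13, 16.7, 33.7 and 14.5 CPM in LDHA-KD anti-CTLA-4 tumours, against 3.1, 3.25, 4.98 and 1.85 CPM in control IgG tumours. LDHA-KD anti-CTLA-4 tumours replicates 1 and 4 were the highest, and the log2 fold change was 2.56 (adjusted p = 0.0114, SE 0.76). Of 6 erythroid genes Slc4a1 (-1.97) was lower (16.7%, near the 19.7% of all genes), and the globin genes did not pass. Of 14 immediate early genes, which respond to handling as well as to signals, 5 were higher, and 1 without replicates 3 and 5. Zfp36 had 53.2, 49, 132, 63.4 and 137 CPM in LDHA-KD anti-CTLA-4 tumours, against 40.7, 47.4, 42.4 and 29.5 CPM in control IgG tumours, highest in replicates 3 and 5, and its log2 fold change was 1.118 (adjusted p = 0.00231, SE 0.26) with all libraries and 0.47 without those 2 (adjusted p = 0.0300). The part these tissues and responses play in the immune and stromal changes was not tested.

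The calls were not spread evenly over chromosomes, which is given as a description with no test. On chromosome 5, 36.3% of 1123 tested genes were lower and 9.97% higher in LDHA-KD anti-CTLA-4 tumours, on chromosome X 35.3% of 547 were lower and 10.2% higher, and on chromosome 17 34.2% of 809 were lower and 15.8% higher. Chromosomes 10, 8 and 3 leaned the other way, with 31.6%, 29.7% and 26% higher and 12%, 10.6% and 8.71% lower. The median log2 fold change was -0.17 on chromosome 5 and 0.17 on chromosome 10, so the shift per gene was small. Ldha is on chromosome 7, where 21.6% were higher and 13.5% lower. The medians for LDHA-KD IgG tumours over control IgG tumours were -0.19 on chromosome 5 and 0.13 on chromosome 10, and these contrasts share the control libraries. The copy number of the lines 4T1-KD and 4T1-Sc was not measured here, and its part in the pattern was not tested.

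**Figure D5:**
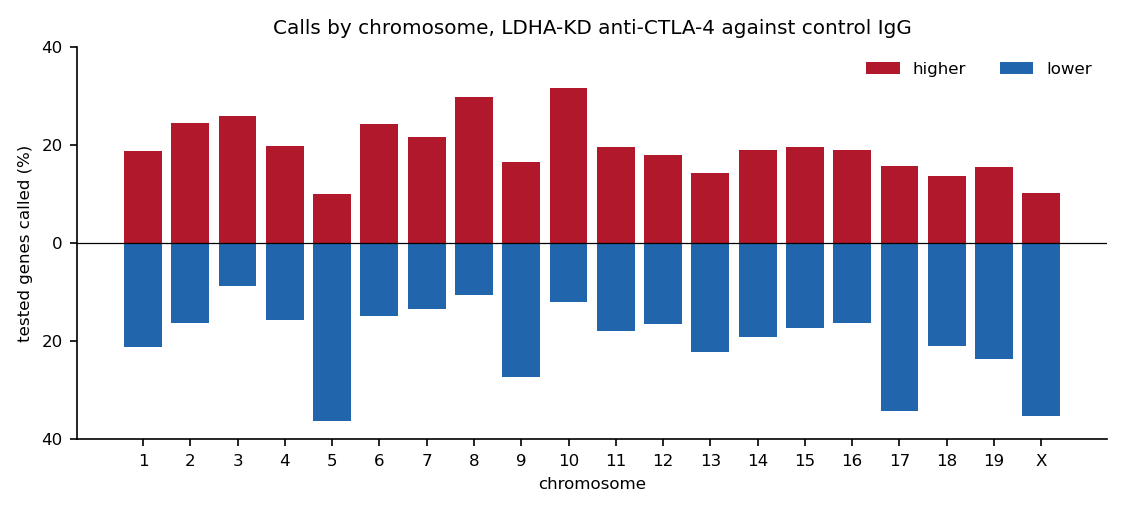
Percent of tested genes on each chromosome that were higher (bars up) and lower (bars down) in LDHA-KD anti-CTLA-4 than in control IgG tumours. Chromosomes 5, X and 17 have the longest downward bars (36.3%, 35.3% and 34.2%), and chromosome 10 the longest upward bar (31.6%).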

How the data were processed

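Polyadenylated RNA (500 ng) was made into stranded TruSeq libraries with 8 PCR cycles and read as paired ends, per the labels' protocols. The deposited values are raw counts of read pairs per gene, which the authors obtained with HTSeq 0.5.3 on mm10, per the submitters' processing notes, which also name Picard 1.124. The aligner, annotation release and strand setting are not given in the sources used here. The 5 lines that name no gene were dropped.

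Of 46983 genes, 16763 passed edgeR's expression filter, and the 30220 left out held 0.0453% of counts. The filter was applied by group, so a gene can pass on its level in 1 group alone. Counts of calls among rarely read genes are therefore partly set by it. Counts from all 19 libraries were fitted with edgeR 4.0.16 in R 4.3.3 (TMM factors, quasi-likelihood test, 1 coefficient per group), so the 4 groups share 1 estimate of the spread, and p-values were adjusted by Benjamini-Hochberg over 16763 genes. CPM is the count per 1000000 gene counts after TMM scaling. The script was tested on simulated data. DESeq2 1.42.0, limma 3.58.1 and other filters, factors and sample sets were alternatives. A count of 3 corresponds to 0.0693 CPM in the deepest library, and such limits cover counting error only. No 2 libraries agreed within sampling noise (lowest chi-square per gene 13.8).

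The members and all 37 gene lists were chosen with earlier results of these data known, so list counts are descriptions without a test. Of 575 list entries 574 were measured and 544 passed the filter. Named genes were Ctla4, Gzmb, Ifng, Cd4, Cd8a, Foxp3, Ldhb and Ldha, the 12 largest called changes each way with mean log2 CPM of at least 1 and all 20 library pairs in that direction (predicted genes and pseudogene symbols left out), and, in lists with at least 3 calls, the 4 smallest p in the main direction and up to 2 in the other. A rule for up to 8 genes each way beyond all other arms named none. Some genes that this rule names are not reported here. Other genes are examples chosen after their values were seen. Positions are from GENCODE M21 (GRCm38), where 46488 identifiers matched. Levels in CPM are not scaled to gene length and compare libraries, not genes.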

Additional observations from a re-analysis of the deposited data

Results flagged for a closer look

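Among 336 sets of library values, of named genes and of library measures such as depth, 13 held a library far from the others of its group. That is below the share of about 5% that chance alone gives. In LDHA-KD anti-CTLA-4 tumours, replicate 1 was the lowest for Ccr8 (1.28 CPM) and the highest for Cldn5 (6.00 CPM), and replicate 2 was the lowest for Irf8 (71.8 CPM) and Eng (77.0 CPM). Replicate 3 was the lowest for Dhcr7 (43.1 CPM). For all 5 of these genes the groups still did not overlap.

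Among control IgG tumours, replicate 1 was the lowest for Csf1r (95.3 CPM), Pdgfra (84.2 CPM) and Dcn (103 CPM) and the highest for Cox5a (119 CPM). Replicate 4 was the lowest for Ifng (0.298 CPM) and Psmb10 (74.3 CPM), replicate 3 the lowest for Idh2 (115 CPM), and replicate 5 the highest for Megf6 (20.04 CPM). Leaving out any single library kept the call on each of these 13 genes.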

How the results depend on the processing

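Under each of the alternatives run, the counts of genes higher and lower in LDHA-KD anti-CTLA-4 tumours stayed within 1.5 times the reported ones. They were 3291 and 3309 with median-of-ratios factors, 3513 and 3113 with upper-quartile factors, 3461 and 3465 by DESeq2, 3275 and 3317 by limma voom, 3131 and 2843 with no filter, 3027 and 2930 at a mean CPM of at least 1, 2454 and 2348 in a fit of the 9 libraries alone, and 2464 and 2416 without replicates 3 and 5 of both anti-CTLA-4 groups. Leaving out single libraries gave 2602 to 3494 higher and 2783 to 3557 lower genes, and a log2 fold change of Ldha between -1.66 and -1.48. With replicate number as a block, 3537 were higher and 3508 lower. Same-numbered libraries of LDHA-KD anti-CTLA-4 and control IgG tumours correlated at 0.28, 0.20, -0.064 and -0.092 in their deviations from the group means. Other pairs of arms were not compared in this way. The main fit was planned without covariates and did not pair tumours by number. With the block, edgeR's smallest adjusted p for anti-CTLA-4 over IgG fell from 0.385 to 0.0564 in control tumours. In LDHA-KD tumours it fell from 0.293 to 0.0941, with 0 genes called in either. Whether the numbers mark a pairing was not tested. No gene was beyond all other arms under any alternative, and in a fit of the 9 libraries alone that test is not possible. Of 165 named genes, 31 lost their call under at least 1 of 29 settings and 0 reversed. Psat1 lost it under 13, Pdk1 under 12, and Nr4a1 and Slc2a3 under 10 each, all with log2 fold changes under 0.8 in size. Values near the 3-count level of 0.0693 to 0.0865 CPM in these 9 libraries rest on few reads.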

Other observations

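Antigen receptor segments, which the gene lists covered only in part, were mostly called higher among those that passed the filter. All 12 T cell receptor variable segments that passed the filter were higher in LDHA-KD anti-CTLA-4 tumours (median log2 fold change 2.41), as were 6 of 7 receptor constant segments (2.08), 6 of 7 immunoglobulin constant segments (2.31) and 2 of 3 immunoglobulin variable segments (3.75). The filter can pass a rarely read segment through the group where it is high, so these counts and medians are partly set by it. Segments that failed the filter were not examined. Reads of such segments can be split among near-identical copies, so single segments are uncertain. Processed pseudogenes showed few calls, with 22 higher and 62 lower of 703.

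Within chromosomes, 20 Mb windows with at least 50 tested genes differed further. The extremes of 127 such windows are given here, beside 19.7% lower and 19.8% higher over all genes. From 20 to 40 Mb of chromosome X, 62.3% of 53 genes were lower, with a median log2 fold change of -0.63. In the window from 20 to 40 Mb of chromosome 2, 45.4% of 271 genes were higher, with a median of 0.30. The genes closest to a difference between LDHA-KD anti-CTLA-4 tumours and LDHA-KD IgG tumours, chosen by p, included genes of secreted proteins. The chemokine Ccl17 averaged 10.6 CPM in LDHA-KD anti-CTLA-4 tumours and 3.76 CPM in LDHA-KD IgG tumours. Its DESeq2 adjusted p was 0.0235, and edgeR gave 0.293. Lox, a collagen crosslinking enzyme, averaged 146 CPM in LDHA-KD anti-CTLA-4 tumours and 68.1 CPM in LDHA-KD IgG tumours, with a range of 75.0 to 275 CPM among the LDHA-KD anti-CTLA-4 tumours libraries.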
